A study of Mus musculus with 14 samples.

Results

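Germinal center B cells were compared with naive B cells of the mouse spleen on 6 of the 14 Affymetrix arrays of a study of B cell subsets. The members were the 3 arrays titled as germinal center cells and the 3 titled as naive B cells. The other 8 arrays, 4 of plasma cells and 4 of memory cells, entered the estimate of the spread between arrays and the choice of the brightest probe set of each gene, and no comparison. All mice were male C57Bl/Ka. Naive cells came from unimmunized mice of 4 to 8 weeks and were gated as B220+ and CD23+, with IgD, the Ig-lambda light chain and low IgM. Germinal center cells came from mice of 6 to 10 weeks, at day 14 after an intraperitoneal injection of 100 µg NP-CGG, a hapten on a carrier protein, precipitated in alum. They were gated as PNA+ (peanut lectin) and NP-PE+ (able to bind the hapten), with B220, low CD38, low Ig-lambda and little or no IgM. Both sorts left out cells bearing CD5, CD8, CD4 or CD3, and those bearing Gr-1, Ter119 or CD11b. Immunization, antigen binding and age therefore differ between the subsets along with the germinal center state and cannot be told apart from it. The labels do not say whether replicate arrays came from separate mice or how many spleens were pooled, so the p-values rest on how far these arrays scatter, and that scatter may be purely technical.

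A germinal center forms in a B cell follicle when antigen-activated B cells, helped by follicular T cells, divide rapidly and mutate their antibody genes. Cells with better antigen receptors are then selected, while many others die there. Naive follicular cells, by contrast, are small resting cells that recirculate between blood and lymphoid organs. The results leave cell cycle genes and the best known germinal center markers aside except as members of gene lists, and follow metabolism, the nucleus, the cell surface, signalling and transcription factors.

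Each of 18193 genes was measured by its brightest probe set, and its level is a linear intensity. A difference is germinal center minus naive on the log2 scale, given as the value ± its standard error (SE), and a gene was called at a limma adjusted p under 0.05. The background of an array, taken as its brightest unspiked bacterial control, lay between 11.6 and 14.7, and from 52.7% to 64.6% of genes exceeded it on the naive arrays and from 56.8% to 58.8% on the germinal center arrays. Over the 8677 genes above background on all 6 arrays, arrays of the same subset correlated at r = 0.97 to 0.98 (naive) and 0.94 to 0.96 (germinal center). Between subsets r was 0.84 to 0.88. The genes are not independent, so these r values are descriptions. The ratio of 3′ to middle signal for beta-actin, which grows as the copied RNA shortens, was 4.68, 4.39 and 5.30 on the naive arrays and 10.1, 17.6 and 6.11 on the germinal center arrays. The same ratio for Gapdh was 9.44, 10.4 and 12.0 against 9.09, 10.9 and 8.23, so the 2 controls did not move together. List counts with the actin ratio as a covariate are given beside each list below. Calls of named genes that the covariate removed are given with the genes or near the end. Whether shorter RNA caused any single difference was not tested.

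Markers of the B cell were bright on all 6 arrays for Ms4a1 (CD20), Cd79b and Ebf1, whereas the probe sets of Cd79a and Pax5 lay only slightly above background. Together these 5 markers summed to between 15440 and 17639 in naive and between 7900 and 10026 in germinal center arrays, and 2 were called lower. The summed intensity of 14 myeloid markers ranged from 171 to 206 in naive and from 179 to 192 in germinal center arrays. That of 10 T cell markers ranged from 189 to 199.7 and from 207 to 276. None of the T cell, NK cell, erythroid or platelet markers was called. The macrophage gene Adgre1 (F4/80) was lower (-1.36), and of the stromal genes Sparc was higher (0.65) and Mfge8 lower (-0.81). The sum of 5 dendritic cell markers lay between 72.2 and 81.3 in naive and between 246 and 299 in germinal center arrays, and of these only Flt3 was called. Flt3, a receptor tyrosine kinase of progenitors and dendritic cells, read 16.5, 19.5 and 16.2 in the naive arrays and 178, 229.6 and 238 in the germinal center arrays (3.62 ± 0.18, adjusted p = 4.68e-09). Syndecan-1 (Sdc1), the plasma cell marker, was at or below background on every germinal center array and read 103, 190.0 and 147 on the naive ones. Jchain, also a plasma cell gene, rose by 7.34, with 1 of 3 naive arrays above background. Irf4, another marker of this type, was lower and is given below. The 6 plasma cell markers summed to between 2910 and 3269 in naive and between 3259 and 5368 in germinal center arrays. Of the 6, 1 was called higher and 2 lower. Prdm1, the plasma cell regulator, stayed near background in both subsets. The part of other cells in the results was not tested.

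Of 18193 genes, 1523 (8.37%) were higher and 2019 (11.1%) lower in germinal center cells, 3542 (19.5%) in all. The intensities of the 3 and 3 arrays did not overlap for 5374 genes (29.5%), and 155 called genes did overlap. Called and without overlap were 7.95% of all genes upward and 10.7% downward. Falls were more numerous at small sizes and rises at large sizes. At 2-fold or more there were 863 rises and 1393 falls, at 8-fold 182 and 143, and at 32-fold 52 and 20. Genes that passed from background to signal numbered 106 (above background on 3 germinal center arrays and 0 naive arrays), and 90 went the other way. In sorted populations, fewer cells expressing a gene and less RNA of it per cell cannot be told apart. The balance of rises and falls rested on the scaling of the arrays: rises made up 43.0% of calls as deposited, 30.2% with arrays centred on their medians, 57.6% when centred on bright genes and 53.1% with the actin covariate. The median difference over all genes was 0.06 as deposited and 0.24 after centring on bright genes. Germinal center arrays were also the more variable. Over 8677 genes above background on all 6 arrays, the SD of log2 intensity (n = 3 each) had a median of 0.37 among germinal center and 0.25 among naive arrays.

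**Figure D1:**
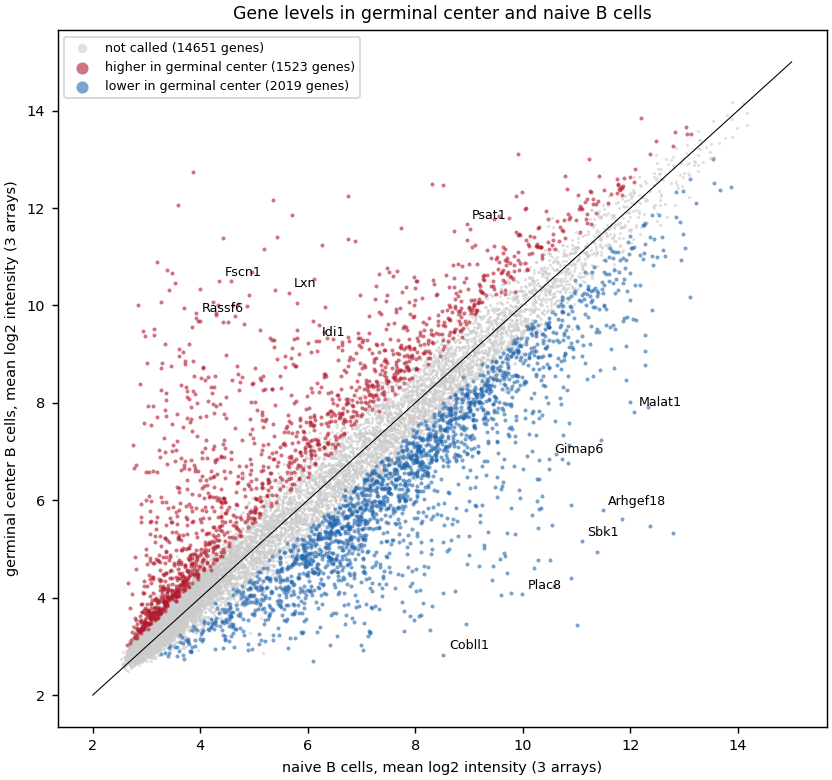
Mean log2 intensity of each gene in 3 naive arrays (horizontal axis) against 3 germinal center arrays (vertical axis), with called genes coloured and the line of equality drawn. The 1523 higher genes fan out at upper left, where many naive levels are near background, and the 2019 lower genes form a broad band below the line.

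Cell cycle genes, the best known markers and genes already described in earlier results of these data, among them Klf3, Cd55, Hhex, Jchain and Rgcc, were set aside from the ranking that follows, and some of these changed more than the genes ranked. Among the rest, the largest rises included genes of the actin cytoskeleton, of membranes and lipids, and of purine breakdown. Fascin (Fscn1), which bundles actin filaments, read 8.80, 57.3 and 16.8 in the naive arrays and 777, 2398 and 1634 in the germinal center arrays. Only 2 of 3 naive arrays lay above background, and the naive values spread widely, but none approached the lowest germinal center value (log2 difference 6.15, SE 0.56, adjusted p = 2.1e-06). Cortactin (Cttn), which stabilises branched actin, read 20.3, 29.4 and 30.1 in the naive arrays and 578, 1547 and 1265 in the germinal center arrays (log2 difference 5.32, SE 0.40, adjusted p = 2.81e-07). All 3 germinal center arrays were far above the naive arrays. Lmo7, a LIM domain protein, read 14.8, 6.35 and 5.57 in the naive arrays and 391, 356 and 670.1 in the germinal center arrays, and since only 1 of 3 naive arrays exceeded background the size of its rise is not well measured.

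Adenosine deaminase (Ada), which converts adenosine to inosine, read 16.98, 29.7 and 14.99 in the naive arrays and 1131, 670.5 and 1040.4 in the germinal center arrays (log2 difference 5.56, SE 0.31, adjusted p = 1.72e-08). Annexin A2 (Anxa2), which binds acidic phospholipids in the presence of calcium, read 17.2, 27.7 and 20.7 in the naive arrays and 1236, 450.5 and 963 in the germinal center arrays (log2 difference 5.25, SE 0.42, adjusted p = 5.74e-07). Its known partner S100a10, or p11, moved the opposite way and read 1267, 1900.2 and 1266 in the naive arrays and 52.7, 13.1 and 30.00 in the germinal center arrays (log2 difference -5.72, SE 0.43, adjusted p = 2.81e-07). The 3 germinal center arrays lay above the naive ones for the first and below them for the second. Lipid carriers rose as well. Osbpl3, a relative of the oxysterol-binding protein, read 7.92, 24.4 and 10.9 in the naive arrays and 678, 291 and 755 in the germinal center arrays, and Fabp5, a fatty acid binding protein, read 11.3, 10.1 and 20.2 in the naive arrays and 327, 591 and 459 in the germinal center arrays. Each was above background on only 1 of 3 naive arrays, so the sizes are uncertain.

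Rassf6, a protein with a Ras association domain, read 20.02, 12.7 and 13.6 in the naive arrays and 1191, 469 and 1135 in the germinal center arrays (log2 difference 5.83, SE 0.37, adjusted p = 5.28e-08), and Pawr, a pro-apoptotic regulator also called Par-4, read 10.1, 9.37 and 18.9 in the naive arrays and 376, 652 and 683 in the germinal center arrays, with only 1 of 3 naive arrays above background. Hbb-bh1, an embryonic beta-like globin gene, read 12.4, 19.3 and 14.8 in the naive arrays and 917, 1086 and 766 in the germinal center arrays (log2 difference 5.91, SE 0.23, adjusted p = 5.23e-10). The summed intensity of 5 measured erythroid markers was 47.3 to 49.2 in naive and 47.3 to 62.3 in germinal center arrays, and none lay above background on all 3 arrays of either subset. For Lrr1, a substrate receptor of a cullin ubiquitin ligase, and Gpsm2, which orients the mitotic spindle, no naive array exceeded background, so the rise was at least 25.8-fold and at least 23.7-fold.

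Among genes above background on all 6 arrays, further rises were those of Noct (nocturnin, 4.80 ± 0.43), Lxn (latexin, a carboxypeptidase inhibitor, 4.62 ± 0.35), Neil1 (a glycosylase that removes oxidised bases from DNA, 4.27 ± 0.37), Cryz (a quinone reductase, 4.25 ± 0.32), Gng12 (a G protein gamma subunit, 4.05 ± 0.24) and Reln (the secreted glycoprotein reelin, 3.95 ± 0.47). Reln read 33.8, 40.4 and 47.5 in the naive arrays and 749.7, 362 and 884 in the germinal center arrays, with no overlap.

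The largest falls in the same ranking included a kinase, a ubiquitin ligase and an adhesion receptor. Sbk1, a serine/threonine kinase, read 1536, 2660.4 and 2567 in the naive arrays and 16.2, 52.8 and 53.9 in the germinal center arrays (log2 difference -5.93, SE 0.41, adjusted p = 1.25e-07). Plac8 read 1066, 1127 and 882 in the naive arrays and 17.9, 19.1 and 13.8 in the germinal center arrays (log2 difference -5.92, SE 0.24, adjusted p = 6.24e-10). Pml, the organiser of nuclear bodies, read 1361, 1196 and 1031 in the naive arrays and 31.2, 21.3 and 21.8 in the germinal center arrays (log2 difference -5.61, SE 0.21, adjusted p = 4.3e-10), and Rnf144a, a ubiquitin ligase, fell by the same order (-5.54 ± 0.20). None of these genes had overlapping arrays. The germinal center values of Plac8 and Rnf144a were close to background, and those of Pml and Sbk1 lay somewhat above it.

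Zfp318, a zinc finger protein needed for the long transcript that yields IgD, read 1593, 582 and 633 in the naive arrays and 14.1, 32.1 and 26.2 in the germinal center arrays (log2 difference -5.20, SE 0.48, adjusted p = 2.18e-06). Naive array 1 was well above the other 2, and all 3 exceeded every germinal center array. Adgre5 (CD97), an adhesion receptor, read 2039, 1988 and 1731 in the naive arrays and 30.8, 79.4 and 88.3 in the germinal center arrays (log2 difference -5.00, SE 0.33, adjusted p = 9.17e-08), and its known binding partner Cd55, which protects cells from complement, read 2123, 1504 and 2132 in the naive arrays and 16.5, 19.1 and 30.6 in the germinal center arrays (log2 difference -6.48, SE 0.35, adjusted p = 1.34e-08). Kbtbd11 showed -5.04 ± 0.22. In 3 genes all germinal center arrays were at or below background, so only bounds hold. Tent5a, a noncanonical poly(A) polymerase, was at least 35.0-fold lower, Cobll1 at least 26.0-fold lower, and Gpat3, an enzyme of triglyceride synthesis, at least 21.8-fold lower.

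**Figure D2:**
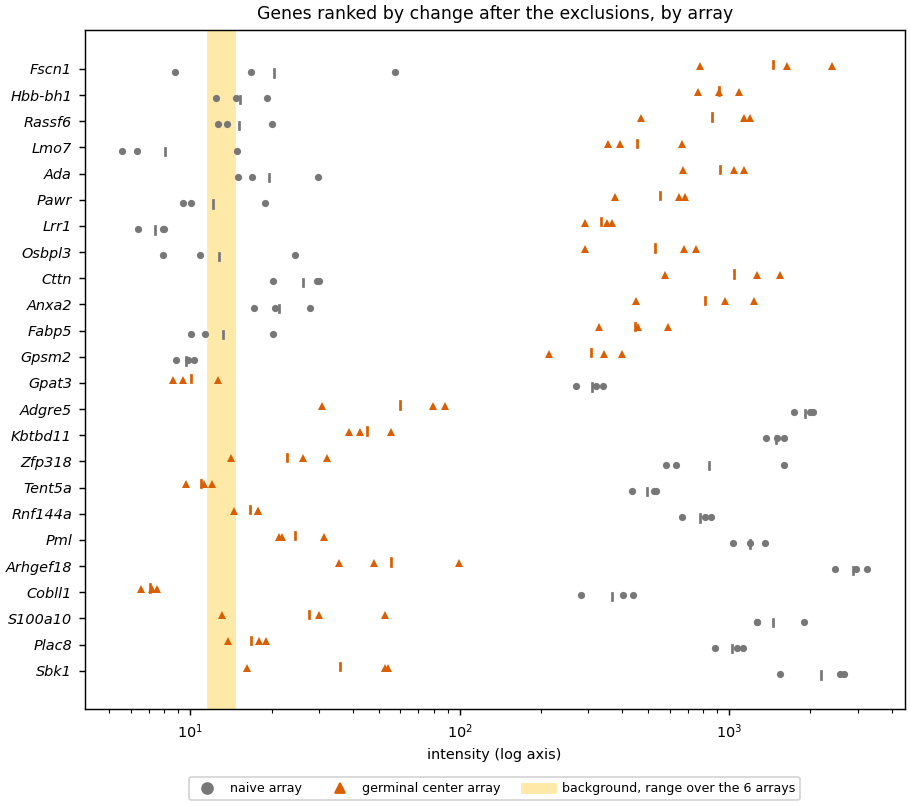
Intensity on each array (log axis) of the 12 genes with the largest rises and the 12 with the largest falls, leaving out cell cycle genes, best known markers and genes already described in earlier results, with naive arrays as circles, germinal center arrays as triangles and geometric means as ticks. The shaded band is the range of background over the 6 arrays, 11.6 to 14.7, and no gene shown has overlapping arrays.

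The members of 32 gene lists, 1348 genes in all, held 184 rises and 278 falls. Their counts are to be read against the 8.37% of all genes called higher and the 11.1% called lower. Detected genes were called more often. Of the 8677 genes above background on all 6 arrays, 1001 were called higher and 1718 lower. In most lists the larger part of the members was detected in this way. Fallen shares from 20.0% (Notch) to 23.4% (endosomal traffic) are therefore close to that of detected genes at large. The share of members that rose was highest for sterol and fatty acid synthesis (52.6%), histone variants and chaperones (18 of 36) and nucleotide and one-carbon synthesis (45.7%). The share that fell was large for GIMAP GTPases (8 of 8), the B lineage core (55.6%), Fc and complement receptors (46.9%) and glycan enzymes (41.3%).

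**Figure D3:**
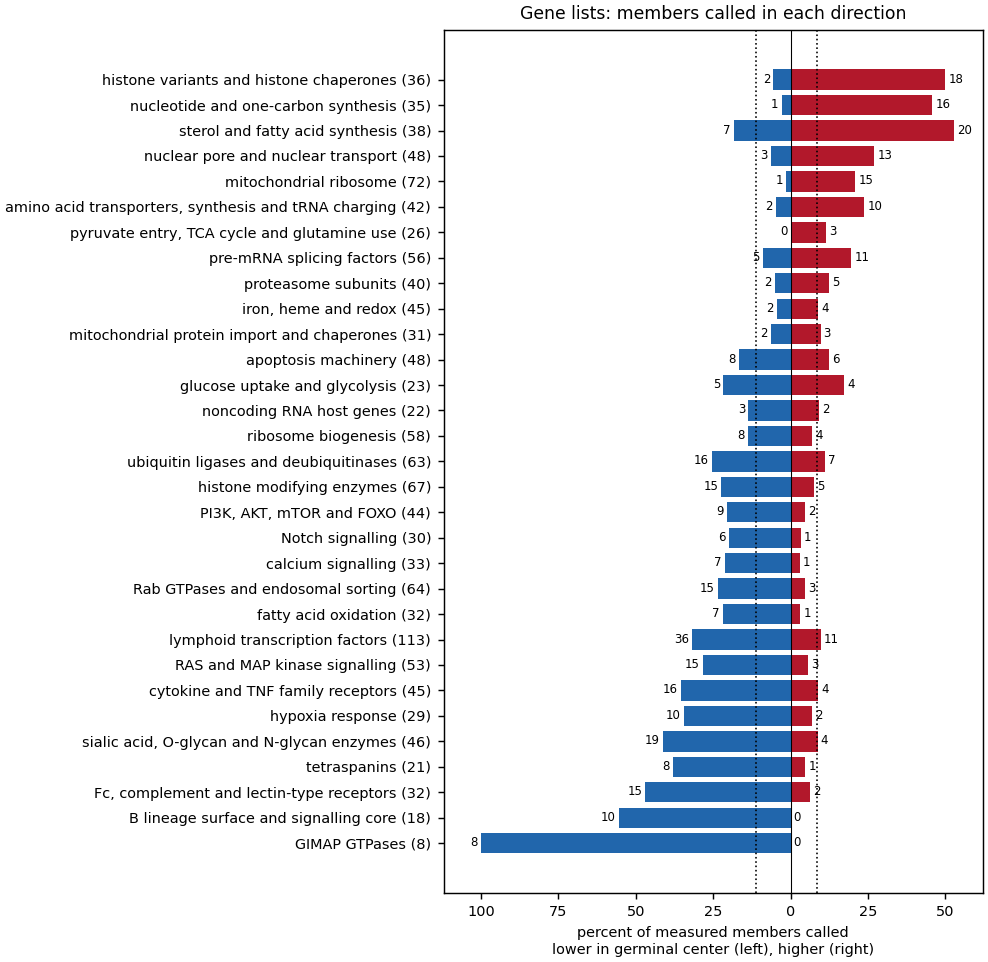
Percent of the measured members of the gene lists described here (number in parentheses) called lower (blue, left) or higher (red, right) in germinal center cells, with the number called beside each bar. Dotted lines mark the shares over all genes, 11.1% lower and 8.37% higher, and all 8 GIMAP genes lie in the left bar.

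Of 35 measured genes of nucleotide and one-carbon synthesis 16 rose and 1 fell (median 0.66; 12 and 1 with the actin covariate), and 11 of the rises were outside the cell cycle set. Ribonucleotide reductase makes deoxynucleotides, and its small subunit Rrm2 read 57.3, 97.7 and 25.04 in the naive arrays and 3042, 3961 and 4197 in the germinal center arrays (log2 difference 6.15, SE 0.46, adjusted p = 2.48e-07). The large subunit Rrm1 rose less, by 2.14 ± 0.19. Thymidine kinase Tk1 (2.64 ± 0.34) and the dUTPase Dut (2.18 ± 0.27) rose as well. In the folate cycle, the cytosolic Shmt1 (2.13 ± 0.23) and the mitochondrial Mthfd2 (2.12 ± 0.20) rose by similar amounts. The one fall was that of Ctps2, a CTP synthase, which read 1127, 1056 and 931 in the naive arrays and 427, 296 and 316 in the germinal center arrays (-1.60 ± 0.22), while its paralog Ctps rose by 1.12.

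In the sterol and fatty acid list, most enzymes that build cholesterol rose and the genes that export it fell. Of 38 measured members 20 rose and 7 fell (median 0.67). With the actin covariate 14 rose and 5 fell. Idi1, which isomerises the isoprene unit, read 43.6, 71.8 and 117 in the naive arrays and 377, 927 and 674 in the germinal center arrays (log2 difference 3.11, SE 0.50, adjusted p = 0.000403; not called with the actin covariate). Cyp51, the lanosterol demethylase, read 66.3, 73.1 and 101 in the naive arrays and 264, 465 and 463 in the germinal center arrays (log2 difference 2.29, SE 0.23, adjusted p = 5.15e-06), and Sqle, which oxidises squalene, read 74.6, 62.5 and 63.2 in the naive arrays and 331, 209 and 459.9 in the germinal center arrays (log2 difference 2.25, SE 0.30, adjusted p = 8.19e-05). No array overlapped for any of these. The fatty acid desaturase Fads1 rose by 2.20 ± 0.35 from near background.

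The falls also took in Ebp, a late enzyme of cholesterol synthesis (-1.07 ± 0.20), and Scap, the escort of the SREBP activators (-1.17 ± 0.23). Abca1 and Abcg1, which export cholesterol, read 582, 341 and 888 in the naive arrays and 41.2, 58.5 and 84.9 in the germinal center arrays for the first (log2 difference -3.25, SE 0.32, adjusted p = 4.28e-06), and 581, 568 and 519 in the naive arrays and 30.1, 82.6 and 84.4 in the germinal center arrays for the second (log2 difference -3.23, SE 0.34, adjusted p = 9.12e-06). Mylip, the ligase that degrades the LDL receptor, read 3676, 2994 and 3295 in the naive arrays and 476, 328 and 483 in the germinal center arrays (log2 difference -2.97, SE 0.18, adjusted p = 3.37e-08). The stearoyl desaturase Scd1 showed -1.77 ± 0.18. Nr1h3, 1 of the sterol-sensing LXR receptors, stayed near background on all 6 arrays and was not called. Srebf2, the master activator of sterol synthesis genes, was not called either (-0.26, interval -0.72 to 0.20).

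**Figure D4:**
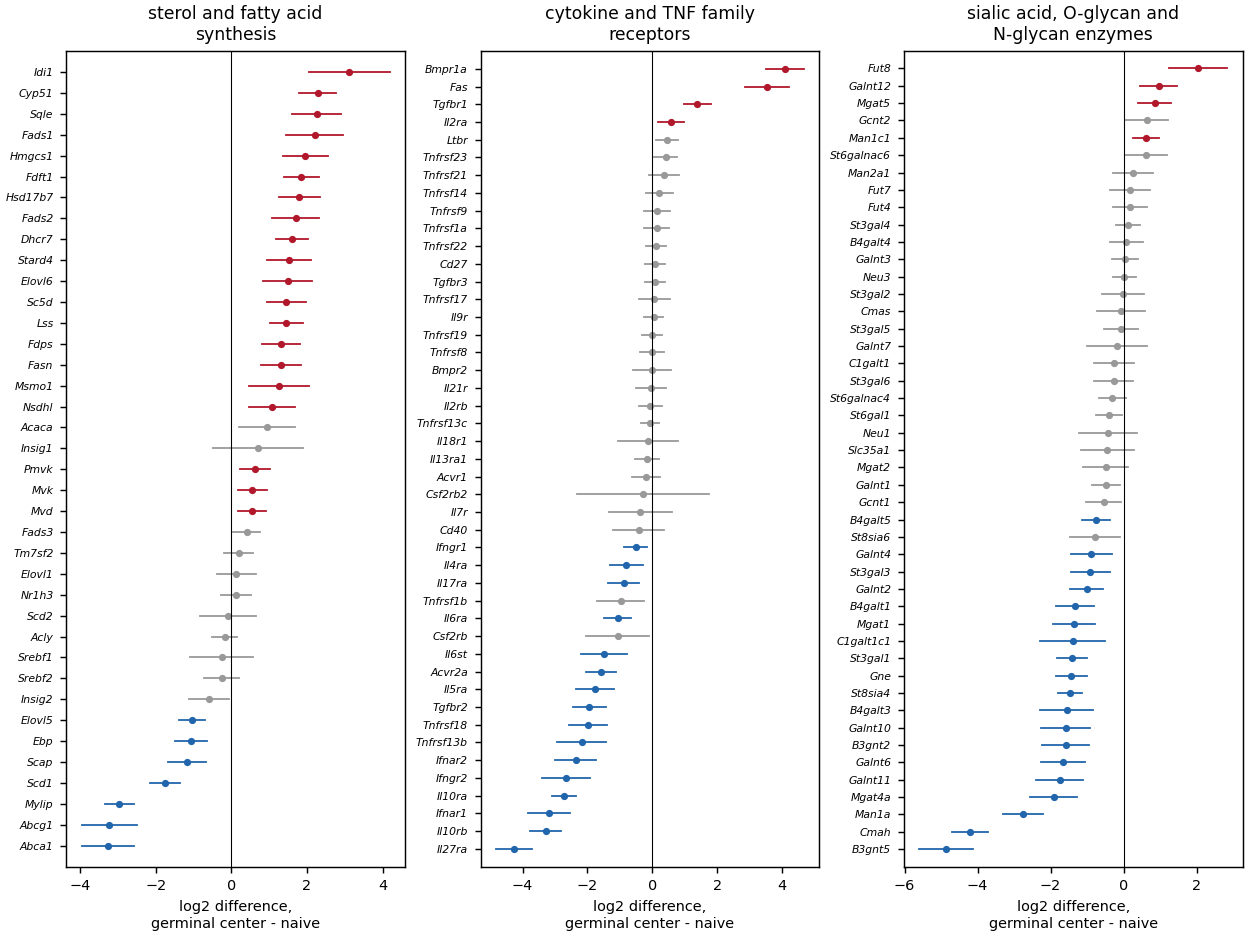
Log2 difference (germinal center minus naive) with its 95% confidence interval for every measured member of 3 gene lists, red where called higher, blue where called lower and grey otherwise. Most sterol synthesis enzymes lie to the right of 0 with Abca1 and Abcg1 at the far left, whereas cytokine receptors and glycan enzymes mostly lie at or left of 0.

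Of 42 measured genes for making, importing and charging amino acids 10 rose and 2 fell (median 0.14; 8 and 0 with the actin covariate). Asparagine synthetase (Asns) read 19.7, 14.1 and 26.8 in the naive arrays and 270.2, 122 and 442 in the germinal center arrays (log2 difference 3.64, SE 0.35, adjusted p = 3.47e-06), and Psat1, of serine synthesis, read 468, 607 and 434 in the naive arrays and 3244, 3452 and 3059 in the germinal center arrays (log2 difference 2.71, SE 0.18, adjusted p = 1.01e-07). Bcat1, which transfers the amino group of branched-chain amino acids, rose at least 5.1-fold, as no naive array exceeded background. Slc1a4, a carrier of neutral amino acids, rose by 2.21 ± 0.30, with 1 of 3 naive arrays above background. The 2 falls were Slc3a2, the heavy chain of several amino acid carriers (-1.503 ± 0.23), and Sars, the seryl-tRNA synthetase (-0.79 ± 0.21). Neither was called with the actin covariate. The other tRNA synthetases were not called, except Aars (0.70 ± 0.17).

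After the gene values were seen, 13 letter patterns were searched for on both strands of the promoters of 14452 measured genes. A promoter was taken as the 250 bases before the RefSeq start (GRCm38.p6). The CCAAT box stood in 13 of 15 risen sterol list genes that had a promoter, in 10 of 15 other genes of that list and in 39.4% of all genes. A core of the sterol response element, TCACNCCAC, was found in 1.27% of all genes and in 1 of the 15 risen sterol genes, Hmgcs1. A core of the amino acid response element, TGATGNAA, was found in 2.84% of all genes, in 2 of 9 risen amino acid genes and in 4 of 22 others. The interferon response element core, GAAA repeated with any 2 bases between, was found in 3.13% of all genes, 2.84% of those called higher and 5.02% of those called lower. These are counts of letters, not of bound sites. The other 9 patterns and the share of all genes that held each were TCACCCCAC (0.63%), TTTGAA (14.1%), GGAAGTG (11.2%), TGACGTCA (2.50%), CACCC (60.8%), CCGGAAGT (4.95%), a longer form of the interferon pattern (3.12%), a longer form of the amino acid pattern (0.14%) and a pattern of TTTC and GGAAA with any 2 bases between (0.43%). Some of them overlap or extend one another.

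The following stretches show these letters in genes that changed, each on the strand of its gene with the match in capitals. Hmgcs1 makes the substrate of the sterol pathway and read 975, 925 and 1280.2 in the naive arrays and 2972, 4795 and 4684 in the germinal center arrays. Its match began 137 bases before the start. Asns and Aars carried the amino acid pattern 23 and 112 bases before theirs, in Aars on the opposite strand. Irgm1, an interferon-induced GTPase, held the GAAA pattern as 2 overlapping matches, 30 and 24 bases before its start, and read 216, 248 and 206 in the naive arrays and 10.7, 15.6 and 14.2 in the germinal center arrays (-4.06 ± 0.22). Sgk1, a kinase downstream of PI3K, held it on the opposite strand 111 bases before its start and read 618, 650.4 and 482 in the naive arrays and 20.99, 28.5 and 26.4 in the germinal center arrays (-4.53 ± 0.29). The positions are chr13:119690174-119690262 (+) for Hmgcs1, chr6:7693210-7693272 (-) for Asns, chr8:111033690-111033777 (+) for Aars, chr11:48871421-48871490 (-) for Irgm1 and chr10:21882033-21882122 (+) for Sgk1.
Hmgcs1: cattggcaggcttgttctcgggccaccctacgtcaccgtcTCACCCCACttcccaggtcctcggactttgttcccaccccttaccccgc
Asns: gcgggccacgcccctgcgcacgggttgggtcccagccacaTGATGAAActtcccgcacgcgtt
Aars: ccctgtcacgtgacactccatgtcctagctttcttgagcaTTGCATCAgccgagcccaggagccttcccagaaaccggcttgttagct
Irgm1: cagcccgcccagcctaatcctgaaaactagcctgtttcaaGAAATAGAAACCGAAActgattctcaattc
Sgk1: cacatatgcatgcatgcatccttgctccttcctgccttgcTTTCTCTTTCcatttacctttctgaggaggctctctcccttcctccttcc

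Energy metabolism changed unevenly. In glucose uptake and glycolysis 4 of 23 genes rose and 5 fell (4 and 2 with the actin covariate). Tpi1, triose phosphate isomerase, read 229, 239.8 and 195 in the naive arrays and 670.5, 742 and 888 in the germinal center arrays (log2 difference 1.79, SE 0.14, adjusted p = 4.15e-07), whereas the glucose transporter Slc2a3 read 791, 584 and 603 in the naive arrays and 78.4, 164 and 259 in the germinal center arrays (log2 difference -2.13, SE 0.31, adjusted p = 0.000189). The other main transporter, Slc2a1, showed -1.17 ± 0.26, without a call under the actin covariate. In fatty acid oxidation 7 of 32 genes fell and 1 rose. Acadm, a medium-chain acyl-CoA dehydrogenase, showed -1.38 ± 0.24 and Acadvl, its very long chain relative, -1.15 ± 0.19. None of the 7 falls was called with the actin covariate. In the citric acid cycle 3 of 26 genes rose and 0 fell (2 and 0 with the actin covariate), among them citrate synthase Cs (0.51 ± 0.13). In the hypoxia list 10 of 29 fell, 2 rose and 17 were not called (5 lower and 1 higher with the actin covariate). The falls included Bnip3 (-2.02 ± 0.26) and Ddit4 (-2.02 ± 0.38). Pgk1, of glycolysis and of the hypoxia list, showed 0.60 ± 0.12.

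Of the mitochondrial ribosome 15 of 72 genes rose and 1 fell (median 0.41), all 72 lying above background on the 6 arrays. The fall was that of Mrps5 (-1.04 ± 0.25) and rested on its brightest probe set. Other, dimmer probe sets of Mrps5 were called higher (1.03 and 1.06). The leading rises were those of Mrpl27 (2.26 ± 0.69), Mrpl33 (1.497 ± 0.24) and Mrps36 (1.43 ± 0.24). Mrpl27 read 101, 18.5 and 83.00 in the naive arrays and 924, 104 and 176 in the germinal center arrays, with germinal center array 1 far above the other 2, and without that array it was not called. Under the actin covariate, 3 rose and 0 fell. Ribosome biogenesis in the nucleolus showed 4 rises and 8 falls of 58 (1 and 1 with the actin covariate), led by Noc4l (1.10 ± 0.22) and Nop58 (-1.75 ± 0.45). Proteasome subunits showed 5 rises and 2 falls of 40 (2 and 0 with the actin covariate), and the largest rise was that of the assembly factor Pomp (1.07 ± 0.36), a call lost under 10 of 16 alternatives. Redox and iron genes gave 4 rises and 2 falls of 45 (2 and 1 with the actin covariate). Thioredoxin (Txn1) read 516, 547 and 487 in the naive arrays and 5177, 2453 and 2187 in the germinal center arrays (log2 difference 2.55, SE 0.28, adjusted p = 1.41e-05), and germinal center array 1 was the highest.

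Of 36 histone variants and chaperones 18 rose and 2 fell (median 0.69; 16 and 2 with the actin covariate), and 10 of the 18 were outside the cell cycle set. Asf1b, a histone H3-H4 chaperone, read 54.9, 74.3 and 124 in the naive arrays and 1059.9, 706 and 1326 in the germinal center arrays (log2 difference 3.65, SE 0.31, adjusted p = 1.23e-06), and Hells, a chromatin remodeler needed for DNA methylation, read 59.1, 55.5 and 52.4 in the naive arrays and 484, 704 and 792 in the germinal center arrays (log2 difference 3.54, SE 0.31, adjusted p = 1.39e-06). The arrays were wholly apart for both. H3f3b, which encodes the replacement histone H3.3, went the other way and read 1592, 880.4 and 1085 in the naive arrays and 79.5, 90.6 and 19.4 in the germinal center arrays (log2 difference -4.47, SE 0.91, adjusted p = 0.00275). Its value rests on 1 probe set, which varied widely within the memory subset, from 144 to 3101. The second H3.3 gene, H3f3a, was not called (-0.48).

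In the nuclear pore and transport list 13 of 48 rose, 3 fell and 32 were not called (6 higher and 0 lower with the actin covariate, 7 and 3 with arrays centred on their medians). Ndc1, a membrane nucleoporin, read 29.9, 29.7 and 30.96 in the naive arrays and 139, 121 and 263 in the germinal center arrays (log2 difference 2.44, SE 0.27, adjusted p = 1.31e-05), and the importin Kpna2 rose by 1.70 ± 0.27. The exportin Xpo5, which carries microRNA precursors, showed -1.65 ± 0.25. Among 56 splicing genes 11 rose and 5 fell, but 3 rose and 0 fell with the actin covariate, and 7 rose and 8 fell when arrays were centred on their medians. Snrpa1, of the U2 particle, rose by 1.82 ± 0.19 and the splicing kinase Clk1 showed -1.51 ± 0.29.

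Histone modifying enzymes leaned the other way, with 15 of 67 lower (22.4%) and 5 higher (7.46%). Of the 67, 63 lay above background on all 6 arrays. Among all 8677 such genes 1718 were lower and 1001 higher, so detected genes at large leaned the same way. The demethylases led the falls. Kdm5b, which removes H3K4 methylation, read 263, 355 and 325 in the naive arrays and 23.9, 39.7 and 28.3 in the germinal center arrays (log2 difference -3.38, SE 0.28, adjusted p = 6.58e-07), and Kdm7a read 481, 293 and 474 in the naive arrays and 55.8, 16.1 and 54.3 in the germinal center arrays (log2 difference -3.47, SE 0.41, adjusted p = 2.43e-05). The methyltransferase Nsd2 rose by 1.62 ± 0.33. Kmt2d, a gene mutated in germinal center lymphomas, rose by 1.27 ± 0.41 (adjusted p = 0.0427), a call lost under 10 of 16 alternatives. With the actin ratio as covariate 2 of these enzymes rose and 6 fell.

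Of 46 measured enzymes that build the glycans of the cell surface 19 were lower, 4 higher and 23 not called (median -0.47). With the actin ratio in the fit 10 were lower and 2 higher. B3gnt5, which starts lacto-series glycolipids, read 1526, 896 and 1434 in the naive arrays and 62.1, 21.5 and 58.9 in the germinal center arrays (log2 difference -4.87, SE 0.34, adjusted p = 1.46e-07). Cmah hydroxylates sialic acid, and its loss in mouse germinal center cells is known to uncover the GL7 epitope. It read 3395, 1962 and 3252 in the naive arrays and 129, 136 and 198 in the germinal center arrays (log2 difference -4.20, SE 0.23, adjusted p = 1.4e-08). Man1a, a mannosidase that trims N-glycans, read 3839, 3219 and 4716 in the naive arrays and 791, 359 and 667 in the germinal center arrays (log2 difference -2.76, SE 0.26, adjusted p = 2.55e-06). St3gal1, which caps the disaccharide that the PNA lectin binds, showed -1.41 ± 0.19, and PNA binding was part of the gate. Among the 4 rises was Fut8, which adds the core fucose of N-glycans and read 186, 129.8 and 227 in the naive arrays and 1096, 334 and 1054 in the germinal center arrays (log2 difference 2.05, SE 0.37, adjusted p = 0.00109). Germinal center array 2 was the lowest of its group, yet above all naive arrays.

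Receptors for antibody and complement, and C-type lectins, fell in 15 of 32 and rose in 2 (11 and 1 with the actin covariate). Apart from Cd55, the IgM receptor Fcmr read 5024, 5054 and 4706 in the naive arrays and 511, 675 and 868 in the germinal center arrays (log2 difference -2.88, SE 0.21, adjusted p = 2.42e-07). Fcer2a, the low-affinity IgE receptor CD23, on which the naive cells were gated, showed -2.74 ± 0.33. Clec2i showed -2.77 ± 0.26. The 2 rises were the complement inhibitor Cd59a, at 29.4, 46.8 and 21.3 in the naive arrays and 146, 112 and 74.4 in the germinal center arrays (log2 difference 1.80, SE 0.27, adjusted p = 0.000215), and the inhibitory receptor Cd300lf (1.46 ± 0.28). Among tetraspanins 8 of 21 fell and 1 rose (4 and 0 with the actin covariate). The rise was that of Tspan33, which read 10.5, 13.4 and 12.9 in the naive arrays and 21.6, 179.7 and 98.3 in the germinal center arrays (log2 difference 2.57, SE 0.53, adjusted p = 0.0028), with 1 of 3 naive arrays above background. Germinal center array 1 was far below the other 2 but above every naive array. Cd37, a tetraspanin of mature B cells, read 503, 398 and 392 in the naive arrays and 46.7, 189.8 and 209 in the germinal center arrays (adjusted p = 0.0293) and lost its call under 9 of 16 alternatives.

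Receptors for cytokines fell in 16 of 45 and rose in 4 (12 and 3 with the actin covariate). The falls took in both chains of the receptor for type I interferon. Ifnar1 read 416, 434 and 388 in the naive arrays and 32.5, 35.1 and 82.9 in the germinal center arrays (log2 difference -3.18, SE 0.30, adjusted p = 3.14e-06), and Ifnar2 read 149, 99.4 and 107 in the naive arrays and 33.7, 14.8 and 23.5 in the germinal center arrays (-2.36 ± 0.29). Both chains of the IL-10 receptor fell as well. Il10rb read 176, 188 and 301 in the naive arrays and 22.4, 20.8 and 23.2 in the germinal center arrays (log2 difference -3.28, SE 0.22, adjusted p = 1.05e-07), and Il10ra read 133, 126 and 166 in the naive arrays and 21.02, 24.2 and 18.7 in the germinal center arrays (-2.73 ± 0.18). Il27ra, a receptor chain for interleukin 27, fell most and read 495, 553 and 453 in the naive arrays and 18.9, 24.6 and 37.1 in the germinal center arrays (log2 difference -4.27, SE 0.26, adjusted p = 3.61e-08). Ifngr2, of the interferon gamma receptor, showed -2.67 ± 0.34.

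Receptors of the TGF beta superfamily divided. Bmpr1a, a type I receptor for bone morphogenetic proteins, read 18.3, 13.4 and 11.9 in the naive arrays and 220.3, 193 and 337 in the germinal center arrays (log2 difference 4.09, SE 0.27, adjusted p = 9.3e-08). The type I TGF beta receptor Tgfbr1 rose by 1.39 ± 0.19, whereas its type II partner Tgfbr2 showed -1.95 ± 0.24. In the Notch list 6 of 30 fell and 1 rose. Notch2, the receptor that directs cells to the marginal zone, read 1861, 1672 and 2089.6 in the naive arrays and 174, 179 and 228 in the germinal center arrays (log2 difference -3.28, SE 0.26, adjusted p = 4.11e-07), and Mfng, a glycosyltransferase that modifies Notch, showed -1.61 ± 0.20. Notch1 was not called (-0.51, interval -1.25 to 0.23). In the fit with the actin ratio 2 of the list fell and 0 rose.

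Within the cell, in the RAS and MAP kinase list 15 of 53 fell and 3 rose (7 and 2 with the actin covariate). Map3k8 and Map3k1, upstream kinases, showed -2.91 ± 0.34 and -2.65 ± 0.18. The phosphatase Dusp10 rose by 1.79 ± 0.39, whereas Dusp6 showed -1.86 ± 0.47. Of 44 genes of PI3K and mTOR signalling 9 fell and 2 rose (3 and 1 with the actin covariate). Sesn1, a sestrin that restrains mTOR, read 2763, 2108 and 2801 in the naive arrays and 424, 299 and 409.9 in the germinal center arrays (log2 difference -2.77, SE 0.33, adjusted p = 2.53e-05), and Foxo3 read 391, 474 and 445 in the naive arrays and 91.4, 134 and 112 in the germinal center arrays (log2 difference -1.97, SE 0.16, adjusted p = 5.04e-07). Pdpk1 read 891, 669.5 and 1256 in the naive arrays and 9.88, 209 and 554 in the germinal center arrays. Its germinal center arrays were widely spread, array 1 lying below background, and its call (adjusted p = 0.0356) was lost under 7 of 16 alternatives. Calcium signalling had 7 falls and 1 rise of 33 (3 and 1 with the actin covariate), with Nfatc1 at -1.80 ± 0.36 and its feedback inhibitor Rcan1 at -1.68 ± 0.16.

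Of 113 measured lymphoid transcription factors 11 rose and 36 fell, or 12 and 18 with the actin covariate. Outside the cell cycle and best known marker genes these were 8 and 29. Mef2b, which activates Bcl6 in germinal center cells, read 12.2, 15.1 and 30.1 in the naive arrays and 132, 320.1 and 432 in the germinal center arrays (log2 difference 3.89, SE 0.39, adjusted p = 5.39e-06). Hivep3, a large zinc finger protein, read 38.6, 70.3 and 26.5 in the naive arrays and 300.4, 847 and 946 in the germinal center arrays (log2 difference 3.90, SE 0.53, adjusted p = 9.16e-05). Zbtb20, a repressor of the BTB zinc finger family, read 133, 27.1 and 52.6 in the naive arrays and 510.3, 531 and 498 in the germinal center arrays (log2 difference 3.16, SE 0.40, adjusted p = 4.42e-05). Its germinal center values were nearly equal while naive array 1 was above the other 2. Mybl1 (A-Myb) was above background on no naive array and rose at least 7.4-fold. Id2, an inhibitor of E proteins, rose at least 3.8-fold, also from no naive array above background.

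The falls were led by Klf3 and Hhex. Klf3, a repressor of the Krüppel-like family, read 1892, 1905 and 2424 in the naive arrays and 9.27, 9.31 and 14.8 in the germinal center arrays (log2 difference -7.57, SE 0.27, adjusted p = 3.2e-10). Only 1 of 3 germinal center arrays exceeded background, so the size is uncertain. Hhex, a homeobox factor, read 3702, 3368 and 3959 in the naive arrays and 27.5, 37.2 and 116 in the germinal center arrays (log2 difference -6.22, SE 0.41, adjusted p = 8.53e-08). Klf2, which keeps lymphocytes quiescent and in circulation, read 929, 714 and 768 in the naive arrays and 24.3, 32.8 and 33.8 in the germinal center arrays (log2 difference -4.74, SE 0.32, adjusted p = 1.05e-07). Zbtb18 showed -3.52 ± 0.32 and Irf4 -3.46 ± 0.33.

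GIMAP GTPases, a family of lymphocyte survival proteins, fell without exception. All 8 were called lower, with a median of -2.40, and, the actin covariate included, all 8 were also called lower under each of the 16 alternatives. Gimap6 read 1702, 1278 and 1340.1 in the naive arrays and 194, 74.2 and 107 in the germinal center arrays (log2 difference -3.63, SE 0.30, adjusted p = 8.17e-07), and Gimap4 read 6139, 5349.7 and 4904 in the naive arrays and 954, 771 and 1182 in the germinal center arrays (log2 difference -2.51, SE 0.17, adjusted p = 1.12e-07). The smallest change was that of Gimap9, which read 307, 341 and 269.5 in the naive arrays and 171, 95.9 and 112 in the germinal center arrays (-1.32 ± 0.20). The family lies side by side on 1 chromosome, and its 8 genes formed the longest of 18 runs of at least 4 adjacent measured genes that were called in the same direction. Of the runs 15 were of falls and 3 of rises, over 18030 genes placed on chromosomes. The next longest held 7 genes, from Ifnar2 through Il10rb, A930006K02Rik, Ifnar1, Ifngr2 and Tmem50b to Dnajc28, with a median of -2.36. The uncharacterised A930006K02Rik and Tmem50b, which are not cytokine receptors, showed -1.64 ± 0.23 and -1.05 ± 0.24. A further run of 6 held tripartite motif genes from Trim34a to Trim30d, with a median of -1.57, and one of 4 held P2ry10, P2ry10b, Gpr174 and Itm2a, with a median of -3.68. Related genes in a run can share sequence and cross-hybridise, and overlapping genes can share probes.

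**Figure D5:**
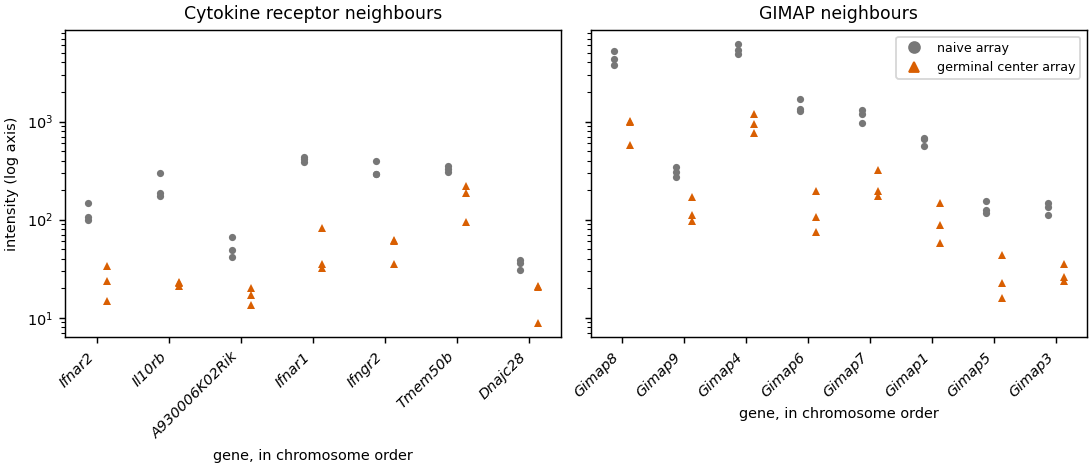
Intensity on each array (log axis, shared) of the 7 adjacent genes around the class II cytokine receptors (left) and of the 8 GIMAP genes (right), in chromosome order, with naive arrays as circles and germinal center arrays as triangles. In every gene shown the 3 naive arrays lie above the 3 germinal center arrays.

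The apoptosis list moved both ways, with 6 of 48 higher (12.5%) and 8 lower (16.7%), or 3 and 3 with the actin covariate. Over all genes the shares were 8.37% and 11.1%. Of the 8677 genes above background on all 6 arrays 1001 were higher and 1718 lower, so the list as a whole did not stand out from detected genes. Bcl2, which blocks mitochondrial death, read 819.5, 400.1 and 727 in the naive arrays and 51.3, 37.1 and 20.1 in the germinal center arrays (log2 difference -4.20, SE 0.46, adjusted p = 1.15e-05), and Pdcd4, an inhibitor of translation, read 1344, 1289.8 and 1064 in the naive arrays and 109, 74.5 and 81.01 in the germinal center arrays (log2 difference -3.82, SE 0.22, adjusted p = 2.33e-08). Birc3, an inhibitor of apoptosis protein, showed -1.46 ± 0.18. The death receptor Fas read 28.5, 23.1 and 27.7 in the naive arrays and 425, 182 and 379.9 in the germinal center arrays (log2 difference 3.55, SE 0.32, adjusted p = 1.62e-06), and Zmat3, a p53 target, rose by 1.95 ± 0.33. Ubiquitin ligases and deubiquitinases fell in 16 of 63 and rose in 7, and with the actin covariate 9 moved each way. Skp2, which targets p27, rose by 3.06 ± 0.37 and Nedd4 by 2.45 ± 0.36. Fbxo32 was at least 7.3-fold lower and the interferon-induced Usp18 at least 2.6-fold lower, with no germinal center array above background.

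Genes of endosomal traffic fell in 15 of 64 and rose in 3, or 5 and 2 with the actin covariate. Rin3, an exchange factor for Rab5, was at least 5.3-fold lower, and Rab30 rose by 1.77 ± 0.27. Of 22 noncoding RNA host genes 2 rose and 3 fell (1 and 2 with the actin covariate). Malat1, an abundant nuclear RNA, read 4417, 4302 and 4098 in the naive arrays and 151, 272 and 279.6 in the germinal center arrays (log2 difference -4.24, SE 0.21, adjusted p = 6.06e-09), and Neat1, the scaffold of paraspeckles, showed -2.16 ± 0.37. Snhg5 and Pvt1 rose by 1.79 ± 0.37 and 1.77 ± 0.27. In the list of mitochondrial import and chaperones 3 of 31 rose and 2 fell (3 and 0 with the actin covariate). Of the import genes, Timm10b (1.30 ± 0.27) and Pam16 (1.21 ± 0.14) rose and Timm9 fell (-1.41 ± 0.39). Timm9 was not called without naive array 1, naive array 3 or germinal center array 1. The list also held genes of mitochondrial DNA, with the DNA polymerase Polg at 1.51 ± 0.23 and the DNA packaging factor Tfam at -1.29 ± 0.35.

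The core of B lineage genes fell in part. Of 18 measured, 10 fell and 0 rose (median -1.10), and all 18 stayed above background on the 6 arrays. With the actin ratio included 5 fell and 1 rose. Bank1, a scaffold of receptor signalling, read 8704, 6920.3 and 8152 in the naive arrays and 1624, 1738 and 2639.8 in the germinal center arrays (log2 difference -2.01, SE 0.22, adjusted p = 1.15e-05), and the kinase Blk read 1029.8, 812 and 800.4 in the naive arrays and 211, 216 and 323 in the germinal center arrays (log2 difference -1.83, SE 0.19, adjusted p = 7.87e-06). Cd79b, of the antigen receptor, showed -1.47 ± 0.30, Ebf1 -1.48 ± 0.32 and the kinase Syk -0.995 ± 0.21. Ms4a1 (-0.50, interval -0.98 to -0.02), Blnk (-0.26, -0.66 to 0.13), Pou2af1 (0.33, -0.02 to 0.68) and Cd24a (0.24, -0.20 to 0.68) were not called. For these 4 a change of 2-fold or more lies outside the 95% interval. Of the remaining members Ralgps2 (-1.63), Ptpn6 (-1.34), Btk (-1.24) and Fcrla (-1.20) fell, as did Cd37, while Cd74 (-0.68), Cd79a (-0.63), Vpreb3 (0.15) and Pax5 (0.03) were not called.

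Several list counts moved by over 1.5 times, and by more than 1 gene, when 1 array was left out. Without naive array 1, splicing had 5 rises and 3 falls, ribosome biogenesis 1 and 3, and proteasome subunits 1 and 0. The same array took glycolysis to 2 rises, calcium signalling to 4 falls, endosomal traffic to 9 falls and noncoding host genes to 4 rises. Without naive array 2, nuclear transport had 8 rises and the proteasome 3. Without naive array 3, splicing had 7 rises, nuclear transport 8, histone modifying enzymes 2, the proteasome 2 and redox and iron genes 2. Ribosome biogenesis then had 2 rises and 5 falls, endosomal traffic 9 falls and mitochondrial import 0 falls. Without germinal center array 1, the proteasome had 1 rise, histone modifying enzymes 3 and tetraspanins 3, redox and iron genes had 2 rises and 5 falls, and the citric acid cycle had 2 falls. Without germinal center array 2, ribosome biogenesis had 2 rises and 4 falls, apoptosis 5 falls, the proteasome 0 falls, and the citric acid cycle and mitochondrial import 5 rises each. Without germinal center array 3, nuclear transport had 8 rises and 6 falls, splicing 8 falls, amino acid genes 4 falls, glycolysis 2 rises, the citric acid cycle 1, histone modifying enzymes 3 and mitochondrial import 5.

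Some calls named above also rested on single arrays. Without naive array 1, Btk, Cd37, Cs, Nop58, Pdpk1, Pomp, Ptpn6, Sars and Sparc were not called. Leaving out naive array 2 removed Cd37, Ctps, Dusp6, Kmt2d, Mfge8, Mrpl27, Pdpk1, Pomp and Sparc, and naive array 3 Aars, Cd37, Kmt2d, Mfge8, Nop58, Pdpk1, Pomp and Tfam. Of the germinal center arrays, leaving out array 1 removed Cd37, Kmt2d, Mfge8, Mrpl27, Nop58, Pomp, Sars and Sparc, array 2 Ctps, Kmt2d, Pomp, Ptpn6 and Tfam, and array 3 Cs, Ctps, Kmt2d and Mfge8. Beside the genes already noted, the actin covariate removed the calls of Adgre1, Btk, Cd300lf, Cd37, Cd79b, Clk1, Cs, Ctps, Ddit4, Dusp6, Ebp, Kmt2d, Mrpl27, Mrpl33, Mrps36, Nfatc1, Noc4l, Nop58, Pdpk1, Pgk1, Pomp, Ptpn6, Scap, Snhg5, Sparc, Syk, Tfam, Tmem50b, Tspan33 and Xpo5.

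Bounds of 2-fold held for part of the genes detected on all 6 arrays. Of 8677 genes above background on all 6 arrays, 4079 (47.0%) had a 95% confidence interval within 1 log2 unit of no change. The count ranged from 3506 to 4087 genes with only the 6 arrays, arrays centred on bright genes, a replicate block or 1 array left out. It was not taken under the other alternatives, the actin covariate among them.

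Some gene values depended on the probe set. Of 4197 genes with 2 or more detected probe sets, 2111 had a called one and 38 (1.80% of these) had probe sets called in opposite directions. That count was 68 without germinal center array 3, 17 without germinal center array 2, 19 without naive array 1 and 18 without naive array 3. The widest gap was in Bbip1, where the brightest probe set showed -2.47 and another 1.11. Sod1, superoxide dismutase, showed 0.71 on its brightest probe set and -2.62 on a dim one. Ms4a6c gave -2.62 and 0.69, Snapc3 -1.48 and 1.71, Gsk3b -1.72 and 1.36, and Rsf1 -1.83 and 1.16. Snapc3 and Gsk3b were not called on the brightest probe set.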

How the data were processed

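Affymetrix arrays measured RNA extracted from sorted spleen B cells, amplified and hybridised, per the labels' protocols. The authors' deposited table holds 1 linear intensity for each of 45101 probe sets on each of 14 arrays. RMA is named in the submitters' processing notes, with no version, and the chip definition is not given in the sources used here. Leaving out 64 control probe sets, 34945 probe sets had 1 gene symbol in the platform annotation, 932 had several and 9160 had none. The symbols of 34741 were looked up by Entrez identifier and 0 changed. The brightest probe set over all arrays stood for each of 18193 genes, of which 9010 had more than 1.

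Intensities were put on the log2 scale and fitted with limma 3.58.1 (R 4.3.3; lmFit and eBayes), with a mean for each of the 4 subsets and 10 residual degrees of freedom. P-values were adjusted by the Benjamini-Hochberg method over all genes. Where no array of the lower subset exceeded background, a fold is given as "at least N-fold" against the higher of background and the measured signal. Tested on simulated data over 18193 genes for this comparison, the fit recovered 70.1%, 91.0% and 100% of genes changed by 1, 2 and 4 log2 units. Of the calls made there, 4.92% were false. The simulation changed only 67, 67 and 66 genes of these sizes, with noise independent between genes and of equal SD in every subset. On the real arrays many more genes were called and germinal center arrays varied more, so these rates need not hold for them. Precision is limited by how many arrays there are.

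1 of the gene lists counted in the totals is not reported here. The members and gene lists were chosen with earlier results of these data known. Named were the 12 largest changes each way among called genes without overlap and above background in the higher subset, and the 10 largest each way above background on all 6 arrays. These picks passed over placeholder symbols, immunoglobulin genes, cell cycle genes, the best known markers and genes already described in earlier results of these data. Also named were members from the 4 largest called in each direction of each list, the B lineage core, and the 6 genes with the widest gap between opposite probe sets. Other named genes, among them Flt3, Aars, Hmgcs1, Irgm1, Sgk1, the members of chromosome runs and list members beyond the largest 4, were chosen after their values were seen. Alternatives were other normalizations, filters, a floor, the mean of probe sets, another variance model, the 6 arrays alone, the actin ratio as a covariate, a replicate block, a stricter threshold and each array left out. Figures were drawn with matplotlib 3.10.9 (Python 3.11.15, pandas 2.3.3).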

Additional observations from a re-analysis of the deposited data

Results flagged for a closer look

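Of the 9160 probe sets without a gene symbol, which no comparison above used, 222 were called higher in germinal center cells and lay above background on all 3 germinal center arrays. A further 271 were called lower and lay above background on all 3 naive arrays (limma, adjusted p under 0.05 over all probe sets).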

How the results depend on the processing

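The 1523 rises became 971 with only the 6 arrays fitted, 817 with the actin ratio as a covariate and 922 at an adjusted p under 0.01. The 2019 falls became 723 with the actin covariate and 1336 at an adjusted p under 0.01. Leaving out 1 array at a time gave 1150 to 1738 rises and 1583 to 2215 falls. The 184 rises and 278 falls among list genes became 119 and 129 with the actin covariate. Genes with opposite probe sets numbered 25 when every probe set had to be above background on all 6 arrays, 15 with a floor of 16, and 17 to 68 with 1 array left out. Mrps5 turned to 0.11 and Sod1 to -0.24 with the mean of all probe sets, and Ncoa4 to 0.0356 with the actin covariate; the cause was not tested. Of 236 named genes that were called, 148 kept their call and direction under every alternative, and the actin covariate removed 80 calls. With the replicate number as a block, 1417 genes rose and 1995 fell, and 7 of the 236 named calls were lost. Deviations of same-numbered arrays correlated at -0.001, 0.19 and 0.11, so the numbers were not taken to pair the samples. Low signal limits genes near background: a bound is given where no array of the lower subset exceeded it, and differences with only 1 or 2 such arrays above it are uncertain in size.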
